A study of Mus musculus with 6 samples.

Results

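The 9 genes described here, Alox12b, Aloxe3, Pnpla1, Elovl1, Elovl4, Sptlc2, Ugcg, Abca12 and Smpd1, encode enzymes and a transporter that make, load and mature the lipids of the epidermal permeability barrier. They were taken by gene symbol from a table of 23951 genes, and all 9 were present and measured well above the filter on low values. The table holds RNA sequencing values of whole skin from 6 C57Bl/6 mice aged 6 to 7 months. The label JunB dep, given to 3 mice, stands for a cross in which a Cre transgene under the keratin 5 promoter deletes JunB in cells that express keratin 5, and the 3 control mice were labelled JunB +/+. The skin of the JunB dep mice was taken from lesions. JunB is a subunit of the transcription factor AP-1, and the comparison asks how the skin transcriptome differs when the epidermis lacks it. Values are FPKM, a measure of expression per transcript length, so levels can be compared between genes. Mice are named by genotype and by the replicate number in the labels, 0, 1 or 2.

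The outermost layer of the epidermis holds back water because its dead cells are embedded in stacked sheets of ceramides, cholesterol and free fatty acids. Ceramides begin with serine palmitoyltransferase, are joined to very long fatty acids that elongases build, and are stored as glucosylceramides and sphingomyelins in lamellar bodies, which the uppermost living cells then secrete. A special class, the acylceramides, carries an extra linoleic acid that a pair of epidermal lipoxygenases oxidizes before the lipid is bound to the cornified envelope. Inherited loss of several of these genes in humans causes scaly skin disorders known as ichthyoses.

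Several properties of the libraries bear on what follows. FPKM summed to between 481078 and 630363 per mouse. The number of reads is unknown, and from the step between low values the relative depth of the other libraries was 0.955 to 1.14 times that of JunB +/+ replicate 0. Junb, the deleted gene, was at 59.3, 72.4 and 56.9 FPKM in JunB +/+ replicates 0, 1 and 2 and at 42.8 and 28.0 FPKM in JunB dep replicates 1 and 2, while the library labelled JunB dep replicate 0 had 129.6 FPKM. The level of Junb in that library therefore went against its label, although whole skin also contains cells that keep the gene. It is part of the JunB dep group in every comparison below unless stated. The same library held all 5 mucosal epithelium markers (summed level 3798 FPKM, where no other mouse exceeded 1.41 FPKM). It had the highest sum of the 6 leukocyte markers (142.9 FPKM, against 11.9 to 43.0 FPKM). Of these, Cd3e was the lowest of the 6 mice in that library (1.96 FPKM, against 3.31 to 8.44 FPKM). The other leukocyte markers were the highest there. The 6 adipocyte markers of that library summed to 60.2 FPKM against 1279 to 9945 FPKM. Of its 5 basal keratinocyte markers, Krt15 (80.7 FPKM, against 947 to 2388 FPKM) and Col17a1 (92.3 FPKM) were the lowest of the 6 mice. Krt5 was the highest at 3725 FPKM, and Trp63 (64.8 FPKM) was above all 3 controls (42.2 to 50.9 FPKM). Krt14 was listed at 0, against 837 to 1304 FPKM in the other mice. Whether that 0 is a missing entry was not tested. JunB +/+ replicate 0 held liver transcripts (4 markers, 1443 FPKM in sum, against at most 36.4 FPKM in the others). The 8 measured markers of differentiated keratinocytes summed to 12847, 13954 and 7955 FPKM in JunB +/+ replicates 0, 1 and 2 and to 16210, 8173 and 12030 FPKM in JunB dep replicates 0, 1 and 2, with none at 0. In the library labelled JunB dep replicate 0, Krt1 (4466 FPKM), Krtdap (5860 FPKM), Dsc1 (93.9 FPKM) and Ivl (96.5 FPKM) were the highest of the 6 mice. Lor (823 FPKM) and Dsg1a (58.1 FPKM) were the lowest. The 6 skeletal muscle markers summed to 13979.8 to 17930 FPKM in JunB +/+ and to 1343 to 3219 FPKM in JunB dep mice. The part of these differences in the results below was not tested. In whole skin, fewer cells of a type and less RNA per cell cannot be told apart.

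The promoters of the genes were read from RefSeq (GRCm38.p6), which gave windows of 250 bases before the transcription start for 8 of the 9 genes. Aloxe3 had no entry. The AP-1 motif TGANTCA was searched on both strands and was found in 0 of the 9 windows (Elovl1 has a pair of them), and in 6.73% of all 32536 windows of this length. The STAT motif TTCNNNGAA was also found in 0 of the 9, and in 7.04% of all windows. These letters say nothing of sites farther away. The GC box GGGCGG lay in 7 of the 9 windows, upstream of 6 of the 8 genes (in 33.0% of all windows). The CCAAT box CCAAT lay in 4 of the 9, upstream of Elovl1, Pnpla1, Smpd1 and Sptlc2 (in 33.8% of all windows). The 9 windows held 53.2% to 80.4% G and C, where the median of all windows was 52.4%. The part of this base content in the GC box count was not tested. Of the 6 genes with a GC box, Ugcg and Alox12b have GENCODE vM1 transcripts on mm9 that start farther upstream, so that 250 and 83 bases of their windows lie inside exons of the same gene. These windows are counted but not printed. In 1 Elovl1 window a GC box and a CCAAT box share bases. The windows of Sptlc2, Elovl4 and Abca12 are printed because these genes, with Ugcg, were the ones that stood highest in the library labelled JunB dep replicate 0. Capitals mark GC boxes and CCAAT boxes on either strand, each sequence runs 5′ to 3′ on the strand of the gene, and its last base lies next to the transcription start. The Sptlc2 window (chr12:87388356-87388605, minus strand) has 2 GC boxes and 3 CCAAT boxes, the Elovl4 window (chr9:83806306-83806555, minus strand) has 2 GC boxes that share a base, and the Abca12 window (chr1:71414911-71415160, minus strand) has neither.
Sptlc2: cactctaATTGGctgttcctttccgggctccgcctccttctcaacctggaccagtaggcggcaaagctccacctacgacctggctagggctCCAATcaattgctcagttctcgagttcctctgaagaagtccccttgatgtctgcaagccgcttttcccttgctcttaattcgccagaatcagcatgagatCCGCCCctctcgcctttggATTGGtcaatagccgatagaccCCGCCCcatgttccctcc
Elovl4: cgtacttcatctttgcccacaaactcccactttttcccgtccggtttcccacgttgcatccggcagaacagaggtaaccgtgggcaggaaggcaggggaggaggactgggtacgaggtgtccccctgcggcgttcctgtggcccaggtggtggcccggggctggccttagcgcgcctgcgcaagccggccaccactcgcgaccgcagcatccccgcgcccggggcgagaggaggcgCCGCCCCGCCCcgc
Abca12: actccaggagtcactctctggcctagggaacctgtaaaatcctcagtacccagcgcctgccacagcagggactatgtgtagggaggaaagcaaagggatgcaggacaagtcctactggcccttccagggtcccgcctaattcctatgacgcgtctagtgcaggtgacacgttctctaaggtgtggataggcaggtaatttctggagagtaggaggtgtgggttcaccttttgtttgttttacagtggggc

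None of the 9 genes passed the test for a difference between JunB dep and JunB +/+ skin. After a log2(FPKM + 0.5) transformation, limma with an intensity trend was run on the 17021 genes whose mean reached 0.1 FPKM, and p-values were adjusted by the Benjamini-Hochberg method over all of them. At an adjusted p below 0.05 the test called 0 of the 9 genes, where it called 1.38% of all genes tested, each of them lower in JunB dep skin and none higher, and at an unadjusted p below 0.05 it again found 0 of the 9, against 7.56% of all genes. Adjusted p-values of the 9 genes ran from 0.722 to 0.887. The log2 fold change was above 0 for all 9, from 0.12 for Smpd1 to 0.66 for Sptlc2 with a median of 0.27, where 53.4% of all genes were above 0 and the median was 0.031. The library labelled JunB dep replicate 0 was the highest of the 6 mice for 7 of the 9 genes, where it was the highest for 29.7% of all genes. It stood at least 1 above the control mean on the log2 scale for 4 of them, Sptlc2, Ugcg, Elovl4 and Abca12, where 11.5% of all genes did. Relative to the control mean, the median of the 9 genes on the log2 scale was 0.92 in that library, 0.040 in JunB dep replicate 1 and 0.065 in JunB dep replicate 2. It was 0.21, -0.12 and -0.10 in JunB +/+ replicates 0, 1 and 2. JunB +/+ replicate 0 was the highest control for 7 of the 9 genes, and without it the median log2 fold change was 0.50. Without the library labelled JunB dep replicate 0, 6 of the 9 genes had a log2 fold change above 0, against 54.1% of all genes in the same fit. The median was then 0.14.

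**Figure D1:**
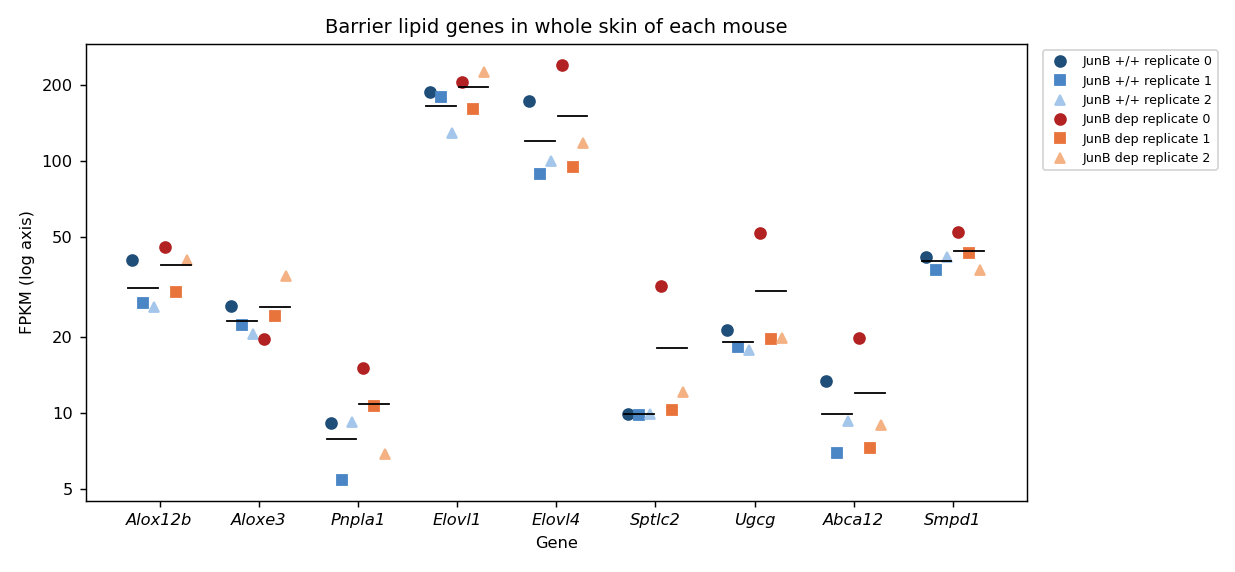
FPKM of the 9 barrier lipid genes in each of the 6 mice, on a log axis, with blue symbols for JunB +/+ and red or orange symbols for JunB dep, and a black line at the mean of each group of 3. The library labelled JunB dep replicate 0 is the highest point for 7 genes and the lowest for Aloxe3.

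Ceramide synthesis starts with serine palmitoyltransferase, of which Sptlc2 encodes a catalytic subunit. Sptlc2 (mm9 chromosome 12, 88646008 to 88729305, minus strand) was at 9.91, 9.83 and 9.96 FPKM in JunB +/+ replicates 0, 1 and 2 and at 31.9, 10.3 and 12.2 FPKM in JunB dep replicates 0, 1 and 2. It was the single gene of the 9 whose groups did not overlap, with all JunB dep mice above all controls, as in 5.62% of all genes tested. The controls were nearly equal, with a SD of 0.0665 FPKM around a mean of 9.90 FPKM (n = 3), whereas JunB dep mice were at 18.1 ± 12.0 FPKM (SD, n = 3). Its log2 fold change was 0.66 (standard error 0.42, 95% interval -0.37 to 1.69, adjusted p = 0.722 from limma), and 0.17 without the library labelled JunB dep replicate 0. JunB dep replicate 1 lay just above the highest control, and the groups overlapped after quantile normalization and after rescaling by epidermal genes.

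Ugcg encodes the glucosylceramide synthase, which adds glucose to ceramide for storage in lamellar bodies. Ugcg (mm9 chromosome 4, 59202129 to 59235705, plus strand) was at 21.3, 18.3 and 17.7 FPKM in JunB +/+ skin and at 51.7, 19.6 and 19.9 FPKM in the JunB dep mice, in the order of replicates 0, 1 and 2. The library labelled JunB dep replicate 0 was 2.70 times the control mean, and the other JunB dep mice lay inside the range of the controls. The log2 fold change was 0.51 (standard error 0.39, 95% interval -0.45 to 1.47, adjusted p = 0.722 from limma), and 0.052 without that library, with an interval of -0.32 to 0.43.

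The elongases extend the fatty acid part of ceramides. Elovl1, which makes saturated and monounsaturated chains of very great length in many tissues, lies on mm9 chromosome 4 from 118100698 to 118105558 on the plus strand. By the mean of each group it was the most abundant of the 9 genes, although Elovl4 was higher in the library labelled JunB dep replicate 0. Elovl1 was at 187.4, 178.2 and 128.3 FPKM in JunB +/+ replicates 0, 1 and 2. It was at 204.1, 159.7 and 224.6 FPKM in JunB dep replicates 0, 1 and 2. The groups overlapped, and in each group the lowest mouse (JunB +/+ replicate 2, JunB dep replicate 1) was also the lowest of its group in the summed markers of differentiated keratinocytes, while the highest mice differed (JunB +/+ replicate 0 and JunB dep replicate 2 for Elovl1, JunB +/+ replicate 1 and the library labelled JunB dep replicate 0 for the markers). The log2 fold change of Elovl1 was 0.26 (standard error 0.23, 95% interval -0.30 to 0.82). It was 0.087 without JunB +/+ replicate 2 and 0.40 without JunB dep replicate 1. Elovl4, which extends chains further and is needed for acylceramides, lies on mm9 chromosome 9 from 83672300 to 83699912 on the minus strand. Elovl4 was at 172.3, 88.2 and 99.8 FPKM in controls and at 239.6, 94.1 and 117.4 FPKM in the JunB dep mice. Both genotypes had replicate 0 well above the other mice, so the SD was large, 45.6 FPKM around a control mean of 120.1 FPKM (n = 3) and 78.1 FPKM around 150.4 FPKM in JunB dep mice (n = 3). Its log2 fold change of 0.27 (standard error 0.43) became -0.13 without the library labelled JunB dep replicate 0.

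Pnpla1 transfers linoleic acid onto omega-hydroxyceramide, the last step of acylceramide synthesis. Pnpla1 (mm9 chromosome 17, 28995356 to 29027253, plus strand) was at 9.15, 5.44 and 9.20 FPKM in JunB +/+ replicates 0, 1 and 2 and at 15.1, 10.6 and 6.92 FPKM in JunB dep replicates 0, 1 and 2. The library labelled JunB dep replicate 0 and JunB dep replicate 1 were above every control, and JunB dep replicate 2 was below 2 of the 3 controls. The log2 fold change was 0.40 (standard error 0.35, 95% interval -0.45 to 1.25, adjusted p = 0.723 from limma), and 0.14 without the library labelled JunB dep replicate 0. Abca12 pumps glucosylceramides into lamellar bodies. Abca12 (mm9 chromosome 1, 71289664 to 71461484, minus strand) was at 13.5, 6.93 and 9.30 FPKM in controls and at 19.9, 7.28 and 8.99 FPKM in the JunB dep mice. JunB dep replicates 1 and 2 lay within the control range, and the log2 fold change of 0.19 (standard error 0.43, 95% interval -0.86 to 1.24) became -0.23 without the library labelled JunB dep replicate 0.

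The lipoxygenases Alox12b and Aloxe3 act in sequence on the linoleic acid of acylceramides. Their genes are neighbours on mm9 chromosome 11, Aloxe3 from 68939398 to 68962617 and Alox12b from 68970491 to 68983294, both on the plus strand with 7873 bases between them. Alox12b was at 40.6, 27.2 and 26.4 FPKM in JunB +/+ replicates 0, 1 and 2 and at 45.6, 30.2 and 40.4 FPKM in JunB dep replicates 0, 1 and 2. JunB +/+ replicate 0 was above a pair of the JunB dep mice, so the groups overlapped, and the log2 fold change was 0.31 (standard error 0.25, 95% interval -0.29 to 0.90, adjusted p = 0.722 from limma). For Alox12b it was 0.18 without the library labelled JunB dep replicate 0, 0.20 without JunB +/+ replicate 2 and 0.50 without JunB +/+ replicate 0. Aloxe3 was at 26.6, 22.3 and 20.7 FPKM in controls and at 19.8, 24.2 and 34.9 FPKM in the JunB dep mice. It was the only gene of the 9 for which the library labelled JunB dep replicate 0 was the lowest of the 6 mice. The log2 fold change of Aloxe3 was 0.15 (standard error 0.24, 95% interval -0.45 to 0.74), 0.33 without that library, and -0.074 without JunB dep replicate 2, the mouse with its highest value.

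Smpd1 encodes acid sphingomyelinase, which releases ceramide from sphingomyelin after secretion and also works in lysosomes of most cells. Smpd1 (mm9 chromosome 7, 112702874 to 112706902, plus strand) was the steadiest of the 9 genes over the 6 mice. It was at 41.7, 36.8 and 41.4 FPKM in JunB +/+ replicates 0, 1 and 2 and at 52.2, 43.0 and 36.8 FPKM in JunB dep replicates 0, 1 and 2, a span of 0.50 on the log2 scale. Its log2 fold change was 0.12 (standard error 0.18, 95% interval -0.30 to 0.55, adjusted p = 0.811 from limma), and -0.0053 without the library labelled JunB dep replicate 0.

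The width of these intervals differed between the genes. For Smpd1, Aloxe3, Elovl1 and Alox12b the 95% interval held neither a doubling nor a halving in JunB dep skin. For Sptlc2, Ugcg, Elovl4, Pnpla1 and Abca12 it held a doubling, with upper ends between 1.24 and 1.69 on the log2 scale, so the data do not exclude a change of that size. Without the library labelled JunB dep replicate 0 no interval held a doubling, and that of Abca12, -1.02 to 0.56, was the only one that held a halving.

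**Figure D2:**
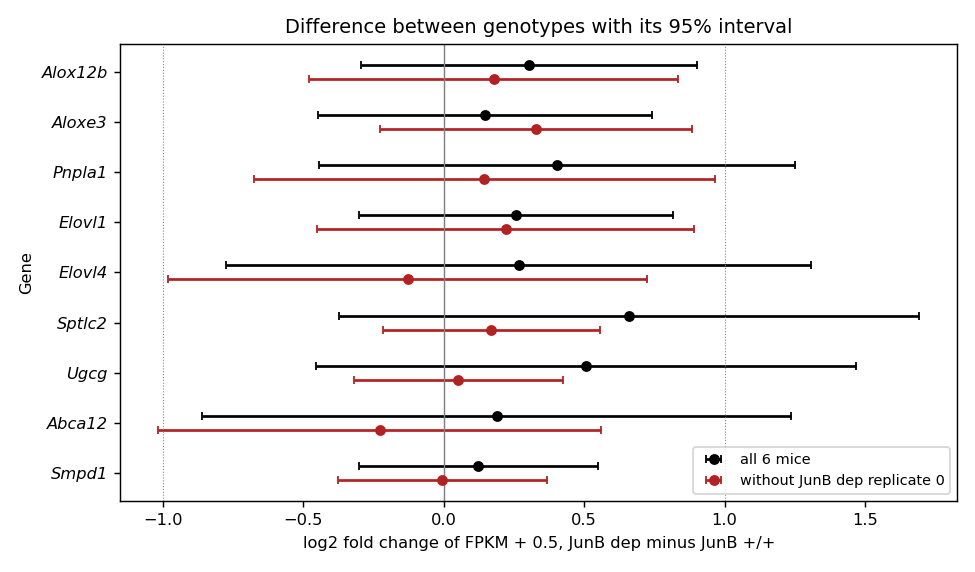
Log2 fold change of each gene, JunB dep minus JunB +/+, on the log2(FPKM + 0.5) scale, with bars for the 95% interval from limma, for all 6 mice (black) and without the library labelled JunB dep replicate 0 (red). Every interval spans 0, and the intervals of Sptlc2 and Ugcg are narrower without that library.

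The order of the levels was much the same in both genotypes. In control skin the mean fell from Elovl1 (165 FPKM) through Elovl4 (120.1 FPKM), Smpd1 (39.98 FPKM), Alox12b (31.4 FPKM), Aloxe3 (23.2 FPKM) and Ugcg (19.1 FPKM) to Abca12 (9.91 FPKM), Sptlc2 (9.90 FPKM) and Pnpla1 (7.93 FPKM). Neighbours in this order overlapped over the 3 controls except at 3 steps, between Elovl4 and Smpd1, between Ugcg and Abca12 and between Sptlc2 and Pnpla1. In JunB dep skin Ugcg stood above Aloxe3 and Sptlc2 above Abca12, and the other ranks were as in controls. Sptlc2 was above Abca12 in each JunB dep mouse and in JunB +/+ replicates 1 and 2, and Ugcg was above Aloxe3 only in the library labelled JunB dep replicate 0.

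Ratios within a mouse do not depend on the scaling of a library, and 3 pairs of enzymes were compared in this way, chosen after their values had been seen. The ratio of Aloxe3 to Alox12b was 0.657, 0.819 and 0.783 in JunB +/+ replicates 0, 1 and 2, and 0.434, 0.804 and 0.864 in JunB dep replicates 0, 1 and 2, so the library labelled JunB dep replicate 0 stood apart from the other mice. The ratio of Elovl4 to Elovl1 was 0.919, 0.495 and 0.777 in controls and 1.17, 0.589 and 0.523 in JunB dep mice, and was highest in that library. Sptlc1 encodes the partner subunit of Sptlc2, and the ratio of Sptlc2 to Sptlc1 was nearly level, at 0.414, 0.393 and 0.460 in controls and 0.443, 0.358 and 0.453 in JunB dep mice, although Sptlc2 was 3.23 times and Sptlc1 3.07 times the control mean in the library labelled JunB dep replicate 0. Exact two-sided permutation tests of the log2 ratios gave p-values of 0.9, 1 and 0.8 in this order and adjusted p-values of 1 over the 3 pairs, where 3 mice against 3 cannot go below 0.1.

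**Figure D3:**
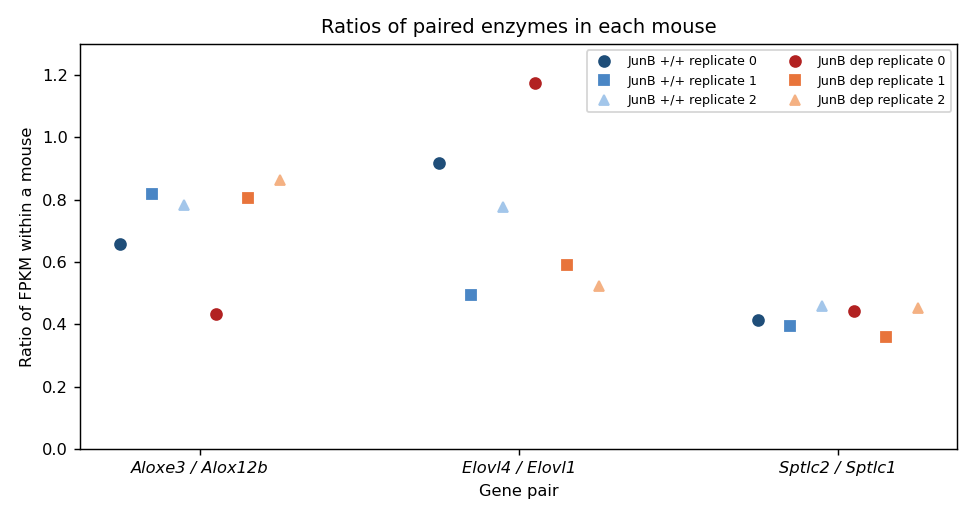
Ratio of FPKM within each mouse for 3 pairs of enzymes, with blue symbols for JunB +/+ and red or orange symbols for JunB dep. The library labelled JunB dep replicate 0 has the lowest ratio of Aloxe3 to Alox12b (0.434) and the highest ratio of Elovl4 to Elovl1 (1.17), while the ratio of Sptlc2 to Sptlc1 lies between 0.358 and 0.460 in all 6 mice.

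The sample titles carry numbers in 2 ranges, the meaning of which the labels do not give. The first range holds JunB +/+ replicates 0 and 1 and the library labelled JunB dep replicate 0, and the second holds JunB +/+ replicate 2 and JunB dep replicates 1 and 2. In the first range 8 of the 9 genes were higher in JunB dep, with a median difference of 0.96 on the log2 scale, and Aloxe3 was at -0.30. In the second range 6 of the 9 were higher, with a median of 0.15. The 5 genes that were higher in both ranges were Alox12b (0.45 and 0.40), Elovl1 (0.16 and 0.56), Elovl4 (0.96 and 0.075), Sptlc2 (1.65 and 0.16) and Ugcg (1.37 and 0.15). Each range has a group of 1 mouse, so the differences within a range have no test. Over both ranges, limma with the range as a block called 0 of the 9 genes and 0 of all 17021, so nothing is read from that count. In that fit the median log2 fold change of the 9 was 0.42, with Sptlc2 at 0.90 and Ugcg at 0.76 (adjusted p = 0.557 for both), Elovl4 at 0.52 and Abca12 at 0.41.

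By profile over the 6 mice, each gene whose values spanned at least 1 on the log2 scale was set beside all 13733 other genes whose mean reached 1 FPKM, and the closest were found by the root-mean-square difference of the values relative to the control mean. Pak6 (0.051) was closest to Ugcg and was at 13.3, 11.4 and 10.4 FPKM in JunB +/+ mice and 33.7, 11.7 and 12.8 FPKM in JunB dep mice. Eif1a (0.074) and 2610528J11Rik (0.084) were closest to Sptlc2. Tead4 was closest to both Abca12 (0.062) and Elovl4 (0.097), followed by Arid5b (0.092) for Abca12 and Arhgap4 (0.13) for Elovl4. Tead4 was at 8.20, 3.68 and 5.24 FPKM in JunB +/+ mice and 11.4, 4.01 and 5.53 FPKM in JunB dep mice, with replicate 0 the highest in both genotypes. Polh (0.067) and Ankrd49 (0.081) were closest to Pnpla1.

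Other genes of the same pathways were counted from 5 hand-written lists that together hold 56 genes, all of which were tested. The adjusted test called 0 of the 56, and 3 had an unadjusted p below 0.05, all higher in JunB dep skin, against the 7.56% of all genes named above. The mean log2 fold change was above 0 for 31 and below 0 for 25, with a median of 0.11, and 28 were above 0 without the library labelled JunB dep replicate 0, with a median of 0.0049. All JunB dep mice were above all controls for 5 of them, Alox8, Nipal4, Sptlc1, Acer2 and Sgms2, and below all controls for 2, Ptpla and B4galt6. Of all genes tested, 5.62% were above and 9.16% below all controls in this way, 14.8% together, so nothing is read from these counts about the lists. Of these 7 names, Sptlc1, Sgms2 and Ptpla were chosen after their values were seen.

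The list of acylceramide synthesis and secretion held 10 genes other than Pnpla1 and Abca12. It had 7 genes with a log2 fold change above 0 and a median of 0.35, and 7 of its genes were highest in the library labelled JunB dep replicate 0. In that library its median was 0.68 above the control mean, and it was -0.18 and 0.16 in JunB dep replicates 1 and 2. Without that library 5 of its 10 genes had a log2 fold change above 0 and the median was -0.022. Cers3, the ceramide synthase that joins the very long acyl chains made by Elovl4, was at 15.8, 14.8 and 14.9 FPKM in controls and at 65.4, 18.2 and 15.5 FPKM in JunB dep mice. Its pattern was close to that of Sptlc2 and Ugcg, with 1 high library, and its log2 fold change was 0.79 (adjusted p = 0.722 from limma), or 0.14 without that library. Nipal4, an ichthyosis gene of the upper epidermis, was at 28.7, 23.5 and 23.4 FPKM in controls and at 41.2, 30.0 and 36.0 FPKM in JunB dep mice. Nipal4 was thus above every control in each JunB dep mouse, with a log2 fold change of 0.49, an unadjusted p of 0.034 and an adjusted p of 0.564 from limma.

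In the list of de novo ceramide synthesis, 15 genes with Sptlc2 left out, 10 were above 0 and the median was 0.18, or 0.036 without the library labelled JunB dep replicate 0. Degs1, which desaturates dihydroceramide to ceramide, was at 49.5, 53.1 and 41.5 FPKM in JunB +/+ replicates 0, 1 and 2 and at 281, 42.6 and 56.3 FPKM in JunB dep replicates 0, 1 and 2. Degs2, which hydroxylates dihydroceramide to phytoceramide, was at 3.36, 2.66 and 4.42 FPKM in JunB +/+ mice and 19.4, 9.72 and 3.84 FPKM in JunB dep mice, with a log2 fold change of 1.29 and an adjusted p of 0.682 from limma, or 0.77 without the library labelled JunB dep replicate 0. Sptlc1 was at 23.95, 25.0 and 21.7 FPKM in controls and at 72.2, 28.7 and 26.9 FPKM in JunB dep mice. The groups did not overlap for Sptlc1, as for its partner Sptlc2, and the log2 fold change was 0.69 (adjusted p = 0.722 from limma), or 0.24 without the library labelled JunB dep replicate 0.

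Fatty acid elongation, 11 genes apart from Elovl1 and Elovl4, had 5 genes above 0 and a median of -0.081, and 7 above 0 with a median of 0.15 without the library labelled JunB dep replicate 0. Elovl7 was at 7.24, 6.04 and 8.35 FPKM in controls and at 36.8, 9.85 and 6.46 FPKM in JunB dep mice, while Elovl6, an elongase of lipogenic tissues, was at 48.98, 33.1 and 33.7 FPKM and at 32.8, 54.6 and 173 FPKM. The elongases thus differed in which JunB dep mouse was the highest, replicate 0 for Elovl4 and Elovl7 and replicate 2 for Elovl1 and Elovl6. The 6 adipocyte markers summed to 60.2, 2258 and 9945 FPKM in JunB dep replicates 0, 1 and 2, in the same order as Elovl6, although in controls they were highest in replicate 1 and Elovl6 in replicate 0. The part of adipose tissue in that gene was not tested. Ptpla, a dehydratase of the elongation cycle, was at 11.6, 13.9 and 11.0 FPKM in controls and at 10.4, 8.80 and 10.3 FPKM in JunB dep mice.

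Ceramide processing and breakdown, 15 genes, had 7 genes above 0 and a median of -0.057, and 4 above 0 with a median of -0.091 without the library labelled JunB dep replicate 0. Acer2, an alkaline ceramidase, was at 7.67, 6.14 and 7.93 FPKM in controls and at 8.90, 11.4 and 16.0 FPKM in JunB dep mice. It was highest in JunB dep replicate 2 and not in replicate 0, with a log2 fold change of 0.67, an unadjusted p of 0.039 and an adjusted p of 0.604 from limma. B4galt6, which extends glucosylceramide to lactosylceramide, was at 2.12, 1.67 and 3.78 FPKM in controls and at 1.52, 0.899 and 1.501 FPKM in JunB dep mice, a log2 fold change of -0.70. Sgms2, a sphingomyelin synthase, was at 3.05, 2.72 and 2.87 FPKM in controls and at 5.77, 3.52 and 3.62 FPKM in JunB dep mice.

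The lipoxygenases other than Alox12b and Aloxe3, 5 genes, did not share 1 pattern, with 2 above 0 and a median of -0.31, or -0.24 without the library labelled JunB dep replicate 0. Alox8, which oxidizes arachidonic acid, was at 0.773, 0.662 and 8.98 FPKM in JunB +/+ replicates 0, 1 and 2 and at 16.5, 15.3 and 15.8 FPKM in JunB dep replicates 0, 1 and 2. The 3 JunB dep mice were close together, while JunB +/+ replicate 2 was far above the other controls, and the log2 fold change of 2.76 had an unadjusted p of 0.015 and an adjusted p of 0.370 from limma. The 6 hair follicle markers, of the growing follicle, summed to 3.07, 4.18 and 3385 FPKM in controls and to 295, 5684 and 89.6 FPKM in JunB dep mice. The controls with little Alox8 were those with few hair transcripts, whereas the JunB dep mice had like levels of Alox8 at very different sums of these markers. The part of the hair cycle in Alox8 was not tested. Alox12e, an epidermal lipoxygenase, was at 142.5, 89.96 and 66.5 FPKM in controls and at 17.6, 97.3 and 66.5 FPKM in JunB dep mice, lowest in the library labelled JunB dep replicate 0, as Aloxe3 was.

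**Figure D4:**
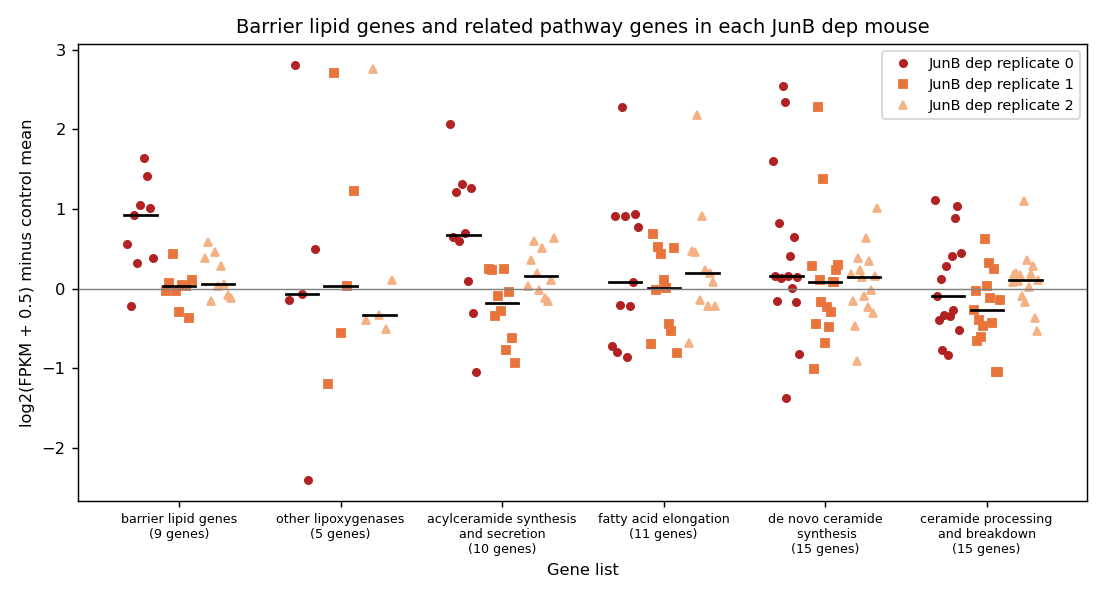
Difference from the control mean on the log2(FPKM + 0.5) scale in each of the 3 JunB dep mice, for the 9 barrier lipid genes and the 5 lists of related genes, with a point for each gene and a black line at the median. The median of the 9 genes is 0.92 in the library labelled JunB dep replicate 0 and below 0.1 in the other JunB dep mice, and that of the acylceramide list is 0.68 in the same library.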

How the data were processed

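Poly(A) RNA of whole skin from 3 JunB dep and 3 JunB +/+ mice was sequenced in strand-specific libraries. The authors checked reads with FastQC and aligned them to mm9 with TopHat 2.0.10, Bowtie 1.0.0 and SAMtools 0.1.19 in the nextpresso pipeline, with up to 2 mismatches and 20 multihits, and deposited FPKM values per gene and mouse. Cufflinks is named in the submitters' processing notes without a role. The sources used here do not say how libraries were scaled. The authors ran DESeq2, and its read counts were not analysed here. Depth is therefore unknown apart from relative steps between low values, and no counting interval is given.

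FPKM values were transformed to log2(FPKM + 0.5) and tested with limma 3.58.1 in R 4.3.3 (intensity trend, no block) over genes whose mean reached 0.1 FPKM, two-sided, with Benjamini-Hochberg adjustment over all 17021 genes and a threshold of 0.05. Each library came from 1 mouse per the study. The procedure was tested on simulated data. Other steps used Python 3.11.15 with pandas 2.3.3 and matplotlib 3.10.9.

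The 9 genes, the pathway lists and the marker lists were chosen with earlier results of these data known. Genes named are the 9 genes, Junb, list genes with an unadjusted p below 0.05 (where fewer than 2, also the 2 largest changes of the list), the genes closest in profile, and markers beside a result. Sptlc1, Sgms2 and Ptpla fall outside this rule and were named after their values were seen. Of the genes closest in profile, 1 is not reported here. The filaggrin gene was not analysed here. Positions of genes come from GENCODE vM1 (mm9) and promoter sequences from RefSeq on GRCm38.p6. Alternatives were a pseudocount of 0.1 or of 1, a filter at 1 FPKM or none, 4 rescalings, limma without the trend or robust, blocks for replicate number or title number range, and each mouse left out in turn.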

Additional observations from a re-analysis of the deposited data

How the results depend on the processing

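The call for the 9 genes was the same in all 18 alternatives, 0 called each time. The lowest adjusted p of any of the 9 was 0.330 (limma). Over all genes, none was called higher in any setting except that without the library labelled JunB dep replicate 0, where 10 were. The 9 genes had fold changes above 0 in the main fit, so the constant 0 says little about them. Of the 18, 5 cannot move a fold change (the filters, limma without the trend or robust, and the replicate block). Under the other 13, 112 of 117 log2 fold changes kept their direction. The 5 that turned were Aloxe3 (-0.074 without JunB dep replicate 2), Elovl4 (-0.13), Abca12 (-0.23) and Smpd1 (-0.0053) without the library labelled JunB dep replicate 0, and Abca12 (-0.030 without JunB +/+ replicate 1). Over the fits with 1 mouse left out, these genes ran from -0.074 to 0.33 (Aloxe3), -0.13 to 0.56 (Elovl4), -0.23 to 0.47 (Abca12) and -0.0053 to 0.24 (Smpd1), and the others from 0.18 to 0.50 (Alox12b), 0.087 to 0.40 (Elovl1), 0.14 to 0.68 (Pnpla1), 0.17 to 0.96 (Sptlc2) and 0.052 to 0.74 (Ugcg). The count of genes with no overlap between groups, 1 as reported, was 0 after quantile normalization and 0 after rescaling by epidermal genes, where 15.8% and 11.1% of all genes did not overlap. Leaving out a mouse gave 1 to 3, with 3 without JunB +/+ replicate 0, 2 without JunB dep replicate 1 and 3 without JunB dep replicate 2, where the groups did not overlap in 18.1%, 21.5% and 40% of all genes in the same fits, against 14.8% with all mice. Over all genes, 235 were called. The count was 0 with the replicate block and 0 with the block on the title number range, and ran from 0 to 254 when a mouse was left out. Without the library labelled JunB dep replicate 0 it was 135, with 10 higher and 125 lower. It was 0 without any control or without JunB dep replicate 1. The cause was not tested. The deviations of same-numbered mice had correlations across genes of 0.12, -0.228 and -0.426 for numbers 0, 1 and 2. Those of mice with different numbers ran from -0.371 to 0.46. These values have no test, so whether same-numbered mice share more than a number was not tested. The 3 mice per group limit what could be detected, and depth is unknown.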
